A study of Mus musculus with 12 samples.

Results

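Mitochondria carry their own ribosome, and the respiratory chain uses electrons from nutrient oxidation to make ATP. The 86 transcripts described here encode nuclear genes of these machineries. They were chosen by name: Mrpl and Mrps genes for the mitochondrial ribosome, and Nduf, Uqcr, Cox (followed by a digit) and Atp5 genes for the respiratory chain with ATP synthase. The count table holds 20561 transcripts without gene names, so names came from the supplementary lists of the study, which pair 2634 of the transcripts with a gene. Of the 86 members, 32 belonged to the mitochondrial ribosome (20 of the large and 12 of the small subunit) and 54 to the respiratory chain (21 of complex I, 7 of complex III, 9 of complex IV, 12 of complex V and 5 assembly factors). These cover 31 of 78 mitochondrial ribosome symbols (39.7%) and 50 of 103 respiratory chain symbols (48.5%) that the same name patterns find among the mouse genes of RefSeq.

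The readable part of the study's list of transcripts with raised translation efficiency named 79 of them, and the other 7 were named only by a table of 5′ untranslated regions (Mrpl4, 1 model of Mrps23, Ndufa3, Ndufaf8, Uqcrq, Atp5f1e and Atp5mk). Members were therefore picked through the ratio of footprints to RNA in the comparison between genotypes. Differences between genotypes in RNA, footprints and their ratio are given below as a description of these members and support nothing beyond them. Members of both machineries that moved in other ways would have had no name here.

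The series compared lymphomas of 2 genotypes, both driven by Eμ-Myc, a Myc transgene under the immunoglobulin heavy chain enhancer that acts in the B lineage. One genotype was Eμ-Myc/+ and the other Eμ-Myc/+ Prps2null, which in addition lacks Prps2, an enzyme that makes the ribose phosphate donor for nucleotide synthesis. Cryopreserved lymphoma cells had been given by tail vein to male C57BL/6 mice aged 8 weeks, with no treatment, and B cells were purified from lymph nodes. RNA sequencing (RNA-seq) and ribosome profiling (Ribo-seq, the sequencing of RNA fragments shielded by ribosomes) were each run on 3 biological replicates per genotype, 12 libraries in all. The sources do not say whether the replicates of a genotype came from separate primary tumours, so the spread between them may be that of 1 stock carried in several hosts.

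Most proteins of these machineries are encoded in the nucleus, translated on cytosolic ribosomes and imported. The mitochondrial ribosome translates only the core subunits that the mitochondrial genome encodes, so respiratory complexes I, III, IV and V are built from the products of both genomes, whereas complex II is entirely nuclear. In rapidly dividing B cells the chain serves ATP production as well as the regeneration of NAD+ and the synthesis of aspartate and pyrimidines. Because footprints were taken from cytosolic mRNAs of nuclear genes, they report on synthesis of the components and not on translation inside the organelle.

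Some mRNAs of the translation machinery begin with a 5′ terminal oligopyrimidine (TOP) motif, a C at the first base followed by pyrimidines, through which the mTORC1 pathway controls their translation. Members were examined for it, because the first bases of a transcript are not measured from the counts. The choice of members was not free of them: 48 of the 55 with a listed 5′ untranslated region were on the list of raised translation efficiency. A motif that acts on translation may be favoured by that choice, so the shares describe these members only. The table of 5′ untranslated regions was not free of it either: all 1573 of its transcripts tested had a positive change in translation efficiency. The share over that table is therefore not one of unselected mRNAs. Of the 55 members with a 5′ untranslated region in the table, 5 began with a C and 4 to 15 pyrimidines (9.09%), against 3.43% of all 1631 transcripts in that table. These 5 are shown here by the first 20 bases listed in that table, 5′ to 3′, with the motif in capitals.
Mrpl36: CTTCCTggcggtggcgtccc
Mrpl4: CTTCCCggcacccggctctg
Uqcrfs1: CCTTTCCggcgtcgcgctga
Atp5mj: CTTTCCCattctgtagcaga
Atp5f1d: CCTTCggagaatcctgtgcg

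By the starts listed in the table of untranslated regions, the motif was found in 2 of 19 mitochondrial ribosome members and 3 of 36 respiratory chain members. The median length of the untranslated region was 144 bases in the mitochondrial ribosome and 99 bases in the respiratory chain, against 149 bases over the table. The 5 members did not share a response in RNA: Mrpl36 and Uqcrfs1 were among the members with the largest differences between genotypes, and Mrpl4 among those with the smallest.

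Promoters were the second sequence feature, read from the genome and not from the counts, for members again chosen mainly through translation efficiency. RefSeq promoters (mouse GRCm38.p6, from 250 bases before to 50 after the annotated start) matched 69 member genes, 28 of the mitochondrial ribosome and 41 of the respiratory chain. Each was searched on both strands for the letters of 4 motifs, and the same search was run on 17491 protein-coding promoters of the same length. The site of NRF1, a factor known for its role in nuclear genes of mitochondria (GCGCATGCG), was in 7 of the 69 (10.1%), against 2.41% of all. The ETS site (CCGGAAGT), which GABP also reads, was in 7 (10.1%), against 5.29% of all, and in 3 (4.35%) against 3.84% when only bases before the start were read. The YY1 site (AAGATGGCG) was in 9 (13.0%), against 1.94% of all, but before the start in only 2 (2.90%, against 0.698%), and its letters also contain a start codon. The canonical E-box (CACGTG) that Myc binds was in 3 (4.35%: Mrpl36, Mrpl37 and Ndufa7), against 7.90% of all. An NRF1 palindrome holds overlapping matches on both strands and was counted once.

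The 4 promoters shown are examples of these motifs in the 100 bases before the RefSeq start, printed 5′ to 3′ on the strand of the gene with every searched motif in capitals. Mrpl36 (chr13:73330909-73331008, plus strand) holds an E-box and a YY1 site, Mrpl32 (chr13:14613038-14613137, minus strand) and Atp5g2 (chr15:102671048-102671147, minus strand) hold NRF1 sites (a palindrome in each, and a further match in Mrpl32), and Uqcrh (chr4:116075071-116075170, minus strand) holds an ETS site. A match of letters is not evidence that a factor was bound in these lymphomas. The Mrpl36 window ends with the 20 bases listed above as the first of its transcript, and 1 further base. RefSeq and the table of untranslated regions therefore place its start at different bases. By the RefSeq start its TOP motif would lie before the first base, and which start these lymphomas use was not tested.
Mrpl36: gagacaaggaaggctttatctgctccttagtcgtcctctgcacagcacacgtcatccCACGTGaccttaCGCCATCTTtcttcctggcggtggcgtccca
Mrpl32: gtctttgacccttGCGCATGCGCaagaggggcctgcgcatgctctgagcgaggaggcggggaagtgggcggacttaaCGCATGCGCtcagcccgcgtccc
Atp5g2: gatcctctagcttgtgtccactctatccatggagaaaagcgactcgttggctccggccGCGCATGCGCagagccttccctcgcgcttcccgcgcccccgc
Uqcrh: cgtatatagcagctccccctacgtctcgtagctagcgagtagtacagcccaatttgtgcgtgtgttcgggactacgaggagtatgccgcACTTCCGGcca

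RNA-seq libraries held 4135908 to 6648829 counts and Ribo-seq libraries 975201 to 2793163. Prps2 RNA stood at 56.5 to 60.9 CPM (the count scaled to the library total, in counts per 1e6) in Eμ-Myc/+ and 8.53 to 10.9 in Prps2null, so every RNA-seq library matched its label. Prps2 footprints did not: the library labelled Eμ-Myc/+ replicate 3 held 8.18 CPM where the others of its label held 163 and 129, and the library labelled Eμ-Myc/+ Prps2null replicate 2 held 140 CPM where the others of its label held 5.11 and 9.65. Ribo-seq values are therefore given with all 6 libraries and without these 2. In RNA-seq, Prps2null replicate 1 stood apart, with 7.88% of its counts on a single transcript. The top transcript took 5.44% and 4.97% in the other Prps2null libraries and 2.78% to 3.55% in Eμ-Myc/+. This share thus did not overlap between the genotypes.

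As a share of all RNA counts, the 32 mitochondrial ribosome members took 0.118%, 0.108% and 0.113% in the Eμ-Myc/+ libraries and 0.0462%, 0.0724% and 0.0791% in the Prps2null libraries. The 54 respiratory chain members took 0.574%, 0.521% and 0.5% in Eμ-Myc/+ and 0.163%, 0.308% and 0.312% in Prps2null. The genotypes did not overlap for either machinery, and Prps2null replicate 1 was the lowest library for both. In bulk samples, fewer cells of a type and less RNA per cell cannot be told apart. The ratio of the respiratory chain share to the mitochondrial ribosome share was 4.42 to 4.86 in Eμ-Myc/+ and 3.53 to 4.25 in Prps2null, again without overlap, a description without a test.

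Footprints gave another picture. Mitochondrial ribosome members took 0.249%, 0.265% and 0.216% of footprints in the libraries labelled Eμ-Myc/+ and 0.231%, 0.279% and 0.221% in those labelled Prps2null. Respiratory chain members took 1.16%, 1.18% and 0.857%, and 0.970%, 1.16% and 0.899%. The labelled genotypes overlapped for both. The low Eμ-Myc/+ value and the high Prps2null value belonged, for both machineries, to the 2 libraries whose Prps2 footprints went against their labels. Without them, Eμ-Myc/+ lay above Prps2null for the respiratory chain (1.16% and 1.18% against 0.970% and 0.899%) and, more narrowly, for the mitochondrial ribosome (0.249% and 0.265% against 0.231% and 0.221%).

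**Figure D1:**
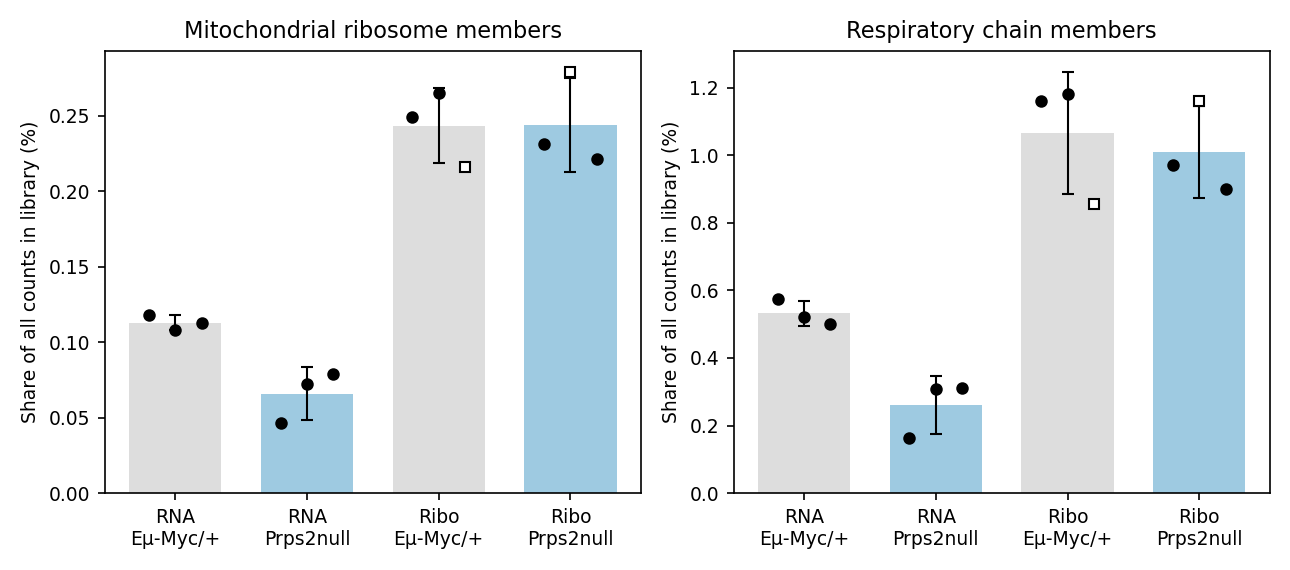
Share of all counts (%) taken by the mitochondrial ribosome members (left) and respiratory chain members (right) in each library, by assay and labelled genotype; bars are means, whiskers 1 SD (n = 3), points libraries, and open squares the 2 Ribo-seq libraries whose Prps2 footprints went against their label. The RNA shares did not overlap between genotypes (0.5% to 0.574% against 0.163% to 0.312% for the respiratory chain), whereas the footprint shares did.

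In the mitochondrial ribosome, 25 of 32 members were lower in Prps2null RNA and none was higher (edgeR quasi-likelihood test, adjusted p under 0.05 over 14682 transcripts). The background was 18.5% lower and 14.7% higher among all transcripts tested. The median log2 fold change of the 32 members was −0.94, against 0.08 over all. In the respiratory chain, 47 of 54 were lower and none higher, with a median of −1.15. Among the 1998 tested transcripts of the list that named most members, 84.6% were lower with a median of −1.14, so the members' shares lie near that of the list most were taken from. Of transcripts also tested in Ribo-seq, 29.0% were lower. All 86 members had a negative fold change in each of the 12 fits made for RNA. In the fit given here 98.7% of that list was negative, against 46.1% of all transcripts tested.

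In 68 of the 86 members all 3 Prps2null libraries lay below all 3 Eμ-Myc/+ libraries (21 in the mitochondrial ribosome, 47 in the respiratory chain), against 16.6% of all transcripts tested. For the list that named most members, 84.6% of which was called lower, neither this share nor the next was computed. Prps2null replicate 1 was the lowest of the 6 libraries in 78 members, against 29.1% of all. Without that library 25 and 48 members were called lower, with medians of −0.85 and −0.94. Scaled by library totals in place of median-of-ratios factors, all transcripts had a median of 0.37, the members −0.66 and −0.86, and 17 of 32 and 35 of 54 were called lower. Over all transcripts the calls were 2712 lower with 2163 higher by the median-of-ratios factors, and by library totals 1668 lower with 3851 higher.

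**Figure D2:**
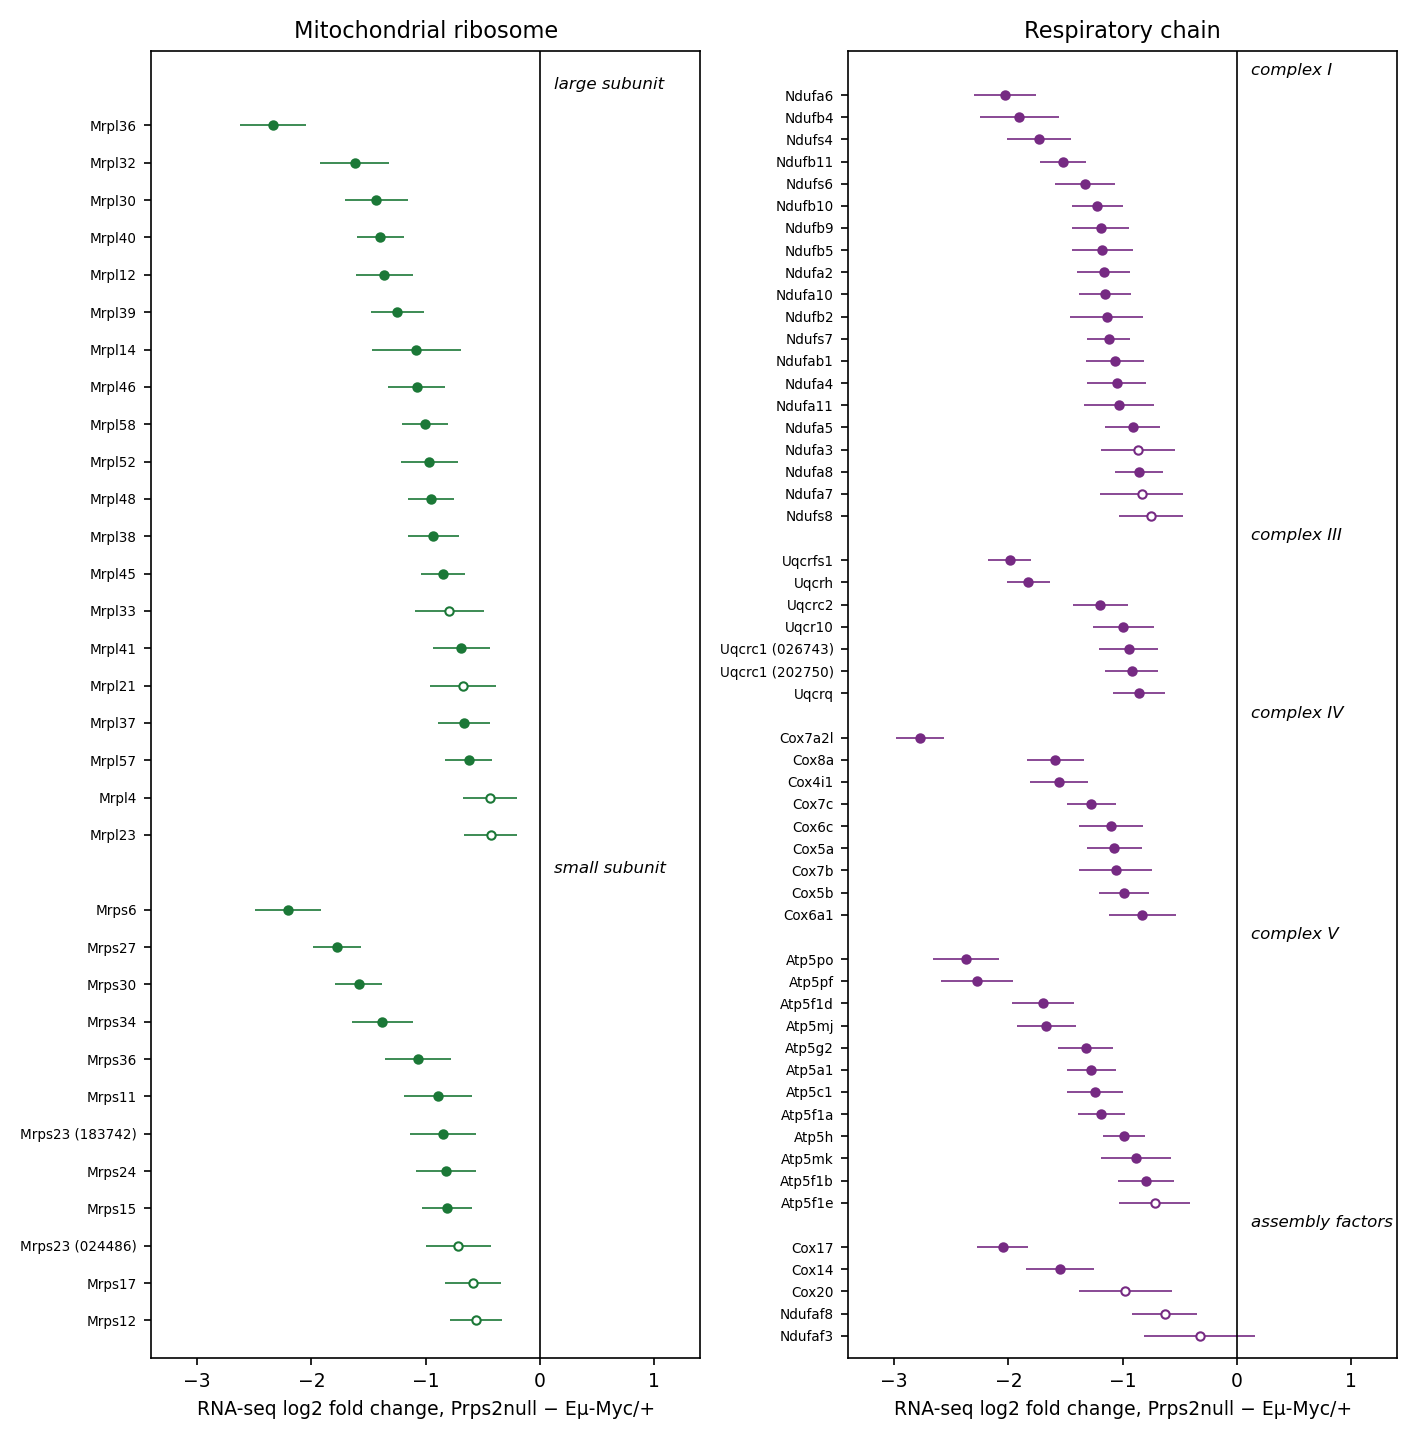
RNA-seq log2 fold change (Prps2null minus Eμ-Myc/+) with its standard error for the members reported here, by subunit or complex; filled points have an adjusted p under 0.05 (edgeR, all transcripts). Every point lies below 0, from −2.77 for Cox7a2l to −0.33 for Ndufaf3.

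In the large subunit of the mitochondrial ribosome, 16 of 20 members were called lower. Mrpl36, the homologue of bacterial ribosomal protein L36, stood at 40.6, 28.4 and 29.9 RNA CPM in Eμ-Myc/+ and at 4.11, 9.86 and 9.71 in Prps2null. The groups were far apart, and the fitted level was 5.04 times lower (log2 −2.33 ± 0.29 SE), the largest difference of the mitochondrial ribosome. Mrpl12, which also binds the mitochondrial RNA polymerase, stood at 139, 116 and 119 CPM against 32.6, 77.7 and 68.0, without overlap (log2 −1.36 ± 0.25). Mrpl40 stood at 41.3, 48.3 and 44.9 CPM against 15.5, 22.4 and 24.2 (log2 −1.40 ± 0.21).

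At the other end, Mrpl23 stood at 23.7, 30.4 and 24.9 CPM against 15.5, 28.4 and 27.5. Its groups overlapped, and only Prps2null replicate 1 lay clearly lower (log2 −0.43 ± 0.23, not called). Mrpl4 had the same shape, at 28.4, 23.9 and 24.9 CPM against 14.7, 29.2 and 25.4 (log2 −0.44 ± 0.24, not called). Mrpl21 and Mrpl33 were the other 2 large subunit members without a call. Mrpl58, a release factor that became a structural protein of the ribosome, stood at 27.6, 26.6 and 27.6 CPM against 15.7, 17.8 and 15.9, with little spread within either genotype.

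In the small subunit, 9 of 12 members were called lower. Mrps6, the homologue of bacterial S6, stood at 23.5, 23.6 and 31.4 CPM in Eμ-Myc/+ and 3.63, 7.96 and 8.88 in Prps2null, 4.60 times lower in the fit (log2 −2.20 ± 0.29). Mrps27, a pentatricopeptide protein, stood at 31.2, 37.5 and 32.2 CPM against 10.9, 11.9 and 13.0, and here the Prps2null libraries lay close together (log2 −1.77 ± 0.21). Mrps15, the homologue of bacterial S15, stood at 48.5, 41.2 and 52.4 CPM against 22.0, 38.5 and 37.8 (log2 −0.81 ± 0.22). The groups did not overlap in these 3 members. Mrps12, the homologue of the bacterial decoding-centre protein S12, stood at 27.2, 24.2 and 22.9 CPM against 14.7, 22.4 and 24.2, which overlap (log2 −0.56 ± 0.22, not called).

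The table holds 2 models of Mrps23. One stood at 13.5, 11.9 and 13.9 CPM against 7.25, 8.53 and 13.2 and was not called, and the other at 13.9, 12.3 and 9.36 against 7.74, 7.02 and 9.30 and was called. Of 2 models of Uqcrc1, a core protein of complex III, 1 stood at 60.1, 54.0 and 47.4 CPM against 17.7, 44.0 and 40.5 and the other at 56.7, 51.9 and 50.9 against 20.8, 44.9 and 37.0. Levels within each gene were near-equal, as were those of the pair Atp5a1 and Atp5f1a, which are names of 1 gene. Reads of near-identical models can be split between them, so each pair is uncertain and does not count as 2 independent members.

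Complex I, the NADH dehydrogenase that is the chain's main entry point, had 18 of 21 members called lower. Ndufa6, an accessory subunit of the LYR family, stood at 125, 105 and 100 CPM in Eμ-Myc/+ and 16.0, 40.8 and 41.9 in Prps2null (4.09 times lower, log2 −2.03 ± 0.27). Ndufb4 of the membrane arm stood at 143, 117 and 95.8 CPM against 13.1, 47.0 and 56.2 (log2 −1.90 ± 0.35). The groups did not overlap in either. The 3 members not called were Ndufa3, Ndufa7 and Ndufs8, with log2 fold changes of −0.86, −0.83 and −0.75. Ndufa4, counted here by its name, is now held to be a subunit of complex IV, and Ndufab1 is also the mitochondrial acyl carrier protein.

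All 7 members of complex III, which passes electrons from ubiquinol to cytochrome c, were called lower. Uqcrfs1, the Rieske iron-sulfur protein, stood at 101, 85.3 and 96.9 CPM against 27.3, 30.5 and 28.7 (3.97 times lower, log2 −1.99 ± 0.19). Uqcrh, the hinge protein beside cytochrome c1, stood at 99.4, 86.9 and 88.8 CPM against 30.5, 30.3 and 33.7 (log2 −1.82 ± 0.19). In both, replicates agreed closely and Prps2null replicate 1 did not stand apart. Uqcrq, the ubiquinone-binding subunit, stood at 79.7, 76.3 and 88.8 CPM against 32.6, 66.6 and 65.9, with replicate 1 far below the rest (log2 −0.85 ± 0.23).

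All 9 members of complex IV, cytochrome c oxidase, were called lower. Cox7a2l, a factor that joins complexes III and IV into supercomplexes, stood at 233, 224 and 239 CPM in Eμ-Myc/+ and 30.2, 43.0 and 50.6 in Prps2null. It was 6.84 times lower (log2 −2.77 ± 0.21), the largest difference among the 86 members, with groups far apart and little spread. Cox6c stood at 226, 179 and 188 CPM against 54.9, 137 and 147 (log2 −1.10 ± 0.28), and Cox6a1 at 55.4, 60.0 and 53.6 against 16.2, 53.3 and 46.9 (log2 −0.83 ± 0.29). In these 2 structural subunits Prps2null replicate 1 lay far below the other libraries, and the other Prps2null libraries lay just below the Eμ-Myc/+ range in Cox6a1.

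Complex V, the ATP synthase, had 11 of 12 members called lower. Atp5po, the stalk protein that confers sensitivity to oligomycin, stood at 195, 198 and 166 CPM against 19.8, 54.6 and 57.8 (5.16 times lower, log2 −2.37 ± 0.29). Atp5pf, coupling factor 6 of the same stalk, stood at 285, 266 and 258 CPM against 28.8, 75.8 and 100 (log2 −2.27 ± 0.31). The catalytic subunit Atp5f1b stood at 525, 483 and 439 CPM against 208, 406 and 408 (log2 −0.80 ± 0.24), and its Prps2null replicates 2 and 3 lay near the Eμ-Myc/+ range. Atp5f1a, the other subunit of the catalytic head, stood at 435, 395 and 371 CPM against 169, 256 and 218 (log2 −1.19 ± 0.21), which did not overlap. Atp5f1e, the epsilon subunit, overlapped at 34.0, 28.4 and 30.1 CPM against 9.19, 24.8 and 34.3 (log2 −0.72 ± 0.31, not called). Atp5mk, a small accessory subunit, stood at 30.4, 26.5 and 21.2 CPM against 7.50, 21.8 and 22.1 (log2 −0.88 ± 0.31).

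Of the 5 assembly factors, 2 were called lower. Cox17, the copper chaperone of cytochrome c oxidase, stood at 121, 83.5 and 99.4 CPM against 21.8, 33.4 and 34.3 (4.14 times lower, log2 −2.05 ± 0.22). Cox14, which acts in the translation and assembly of the COX1 subunit, stood at 24.2, 25.4 and 22.0 CPM against 5.32, 8.91 and 15.5 (log2 −1.55 ± 0.30). Cox20, Ndufaf8 and Ndufaf3 were not called. Ndufaf3 was near the limit of counting, at 3.42, 3.01 and 3.12 CPM against 2.18, 4.74 and 2.27, and its difference had the widest error of all members (log2 −0.33 ± 0.49).

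**Figure D3:**
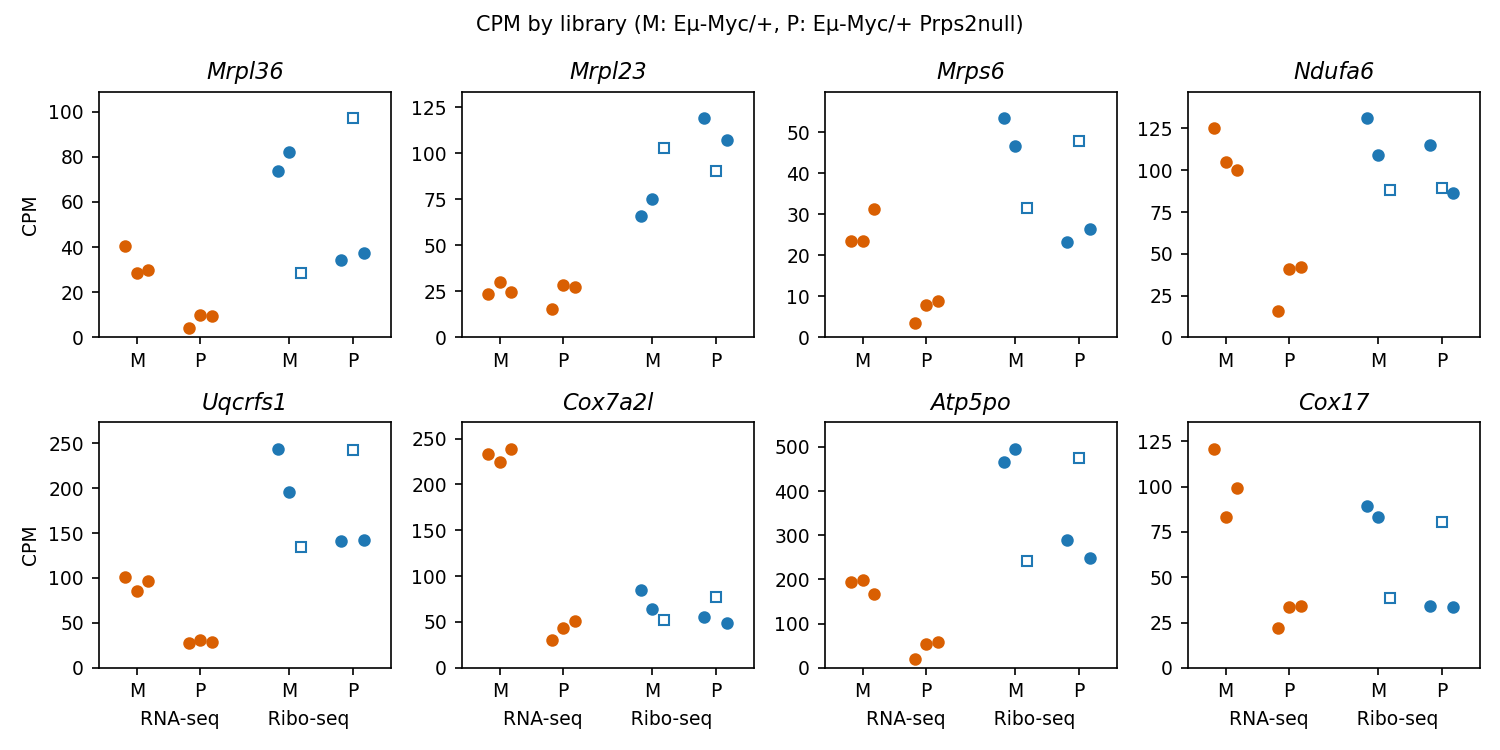
CPM of 8 members in each library, RNA-seq (orange) on the left and Ribo-seq (blue) on the right of each panel, by labelled genotype (M Eμ-Myc/+, P Prps2null; n = 3); open squares are the 2 Ribo-seq libraries whose Prps2 footprints went against their label. In Cox17 the square of Eμ-Myc/+ (38.7) lies with the Prps2null points (34.3 and 33.5) and that of Prps2null (80.3) with the Eμ-Myc/+ points (89.4 and 83.1).

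With all 6 Ribo-seq libraries, no member differed between the labelled genotypes. Neither did any of the 9031 transcripts tested (edgeR and DESeq2, 0 with an adjusted p under 0.05; edgeR gave 47 at an unadjusted p under 0.05, none a member). Medians were 0.01 for the mitochondrial ribosome and −0.08 for the respiratory chain, with standard errors of single members from 0.12 to 0.55. The errors were largest where libraries of 1 label disagreed, as in Mrpl36 (0.55), whose footprints stood at 73.6, 82.3 and 28.6 CPM against 34.1, 97.0 and 37.5.

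The disagreement between libraries of 1 label ran through most members. In 63 of 86 members the library labelled Eμ-Myc/+ replicate 3 was the lowest of its label, against 37.1% of all transcripts tested. In 63 members the library labelled Prps2null replicate 2 was the highest of its label, against 39.9% of all. Both held for 55 members, among them all 12 of complex V and 8 of 9 of complex IV, but 10 of 20 of the large subunit. Atp5pf shows it, with 309, 301 and 123 footprint CPM in the libraries labelled Eμ-Myc/+ and 158, 283 and 137 in those labelled Prps2null. These are the libraries in which Prps2 footprints went against the label. A low Eμ-Myc/+ and a high Prps2null footprint level both raise translation efficiency by label, through which most members were named. The counts therefore describe these members, and no share over all transcripts was computed for both conditions together.

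Without these 2 libraries, 2 remained per genotype, and footprints could be compared on smaller numbers. In the mitochondrial ribosome 8 of 32 members were called lower and 1 higher, with a median of −0.11. In the respiratory chain 21 of 54 were called lower and none higher, with a median of −0.32. Over the 9048 transcripts tested, 17.9% were lower and 18.0% higher, with a median of 0.02. On the list of raised translation efficiency that named most members, 46.4% of 1907 transcripts were lower and 4.09% higher, with a median of −0.43. The shares of members called lower (25.0% and 38.9%) lay above that of all transcripts and below that of the list.

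In the large subunit 4 of 20 members were lower in footprints and Mrpl23 was higher. Mrpl40 footprints stood at 199 and 161 CPM in Eμ-Myc/+ replicates 1 and 2 and at 76.2 and 71.9 in Prps2null replicates 1 and 3, and they fell by 1.30 (± 0.16) on the log2 scale, nearly as much as its RNA. Mrpl36 stood at 73.6 and 82.3 CPM against 34.1 and 37.5 (log2 −1.15 ± 0.21). Mrpl23 went the other way, at 66.1 and 75.3 CPM against 119 and 107 (log2 0.66 ± 0.18). In the 2 libraries left out, Mrpl40 stood at 94.6 and 207 CPM, Mrpl36 at 28.6 and 97.0, and Mrpl23 at 103 and 90.5 respectively in Eμ-Myc/+ replicate 3 and Prps2null replicate 2, in each case shifted toward the values of the other label. In the small subunit 4 of 12 were lower, namely Mrps6, Mrps27, Mrps30 and Mrps36, the last of which is also held to be a subunit of 2-oxoglutarate dehydrogenase.

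In the respiratory chain, 8 of 12 ATP synthase members were called lower in footprints and all 12 were negative, with a median of −0.41. Atp5pf fell by 1.07 (± 0.13) and Atp5po by 0.87 (± 0.12) on the log2 scale, Atp5po from 466 and 496 CPM to 289 and 248. Atp5f1b, with the smallest error of all members, stood at 1250 and 1280 CPM against 1040 and 1030 (log2 −0.31 ± 0.09). In complex I, 6 of 21 members were lower, led by Ndufb4 at 185 and 218 CPM against 98.2 and 101 (log2 −1.04 ± 0.15).

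In complex III 3 of 7 members were lower (Uqcr10, Uqcrfs1 and Uqcrh), and Uqcrfs1 stood at 244 and 196 CPM against 141 and 142 (log2 −0.66 ± 0.14). In complex IV 2 of 9 were lower (Cox7c and Cox8a). Cox7a2l, whose RNA differed most, had footprints of 84.4 and 64.0 CPM against 55.8 and 49.4, a log2 fold change of −0.52 ± 0.21 that was not called. Among the assembly factors Cox17 footprints stood at 89.4 and 83.1 CPM against 34.3 and 33.5 (log2 −1.36 ± 0.20), and Cox14 was lower as well.

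**Figure D4:**
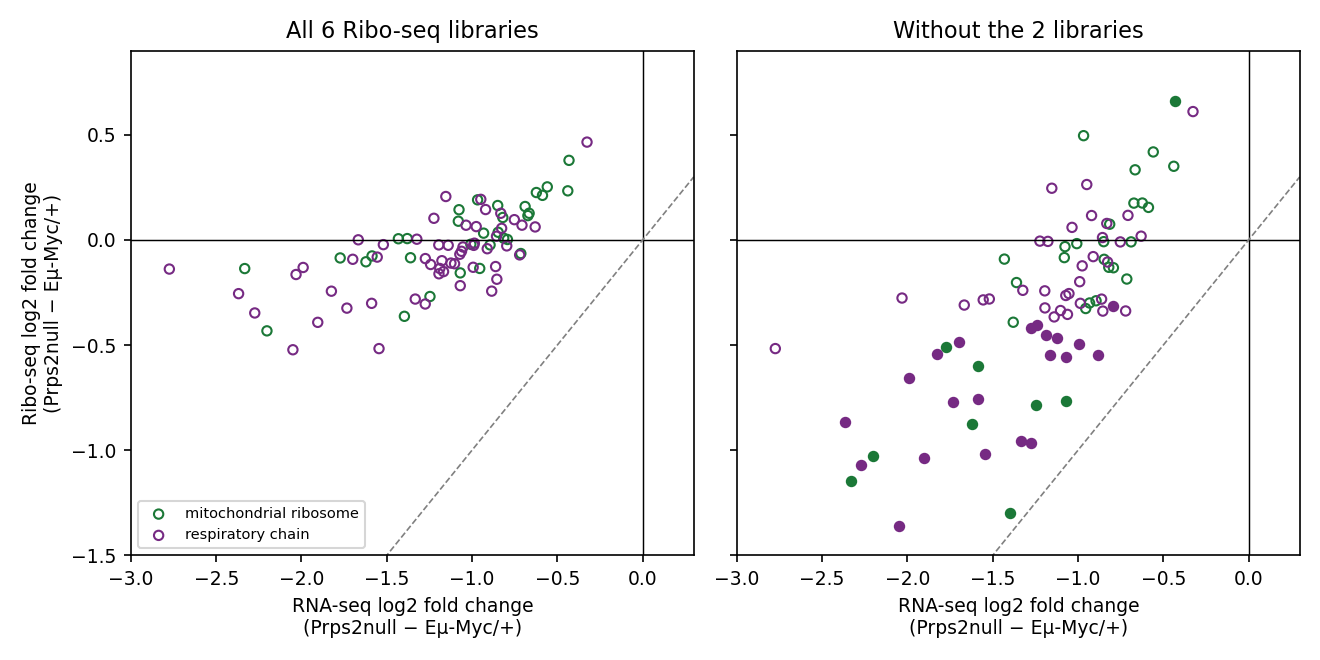
Ribo-seq against RNA-seq log2 fold change (Prps2null minus Eμ-Myc/+) of the 86 members, with all 6 Ribo-seq libraries (left) and without the 2 whose Prps2 footprints went against their label (right); filled points have a Ribo-seq adjusted p under 0.05 and the dashed line marks equal values. No point is filled on the left and 30 are on the right, and every point lies above the line, a side on which the choice of members by that difference bears directly.

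Members with the larger RNA difference also had the larger footprint difference. Across the 86 members Pearson's r was 0.67 with all Ribo-seq libraries and 0.72 without the 2, against 0.60 and 0.77 across all transcripts tested in both assays. Without the 2 libraries it was 0.81 over the 32 mitochondrial ribosome members and 0.66 over the 54 of the respiratory chain. These values are descriptions: transcripts share libraries and are not independent, and the choice of members restricts the range.

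Translation efficiency, the difference in footprints relative to that in RNA, was what the choice of names used. With all libraries the log2 change had a median of 0.95 in the mitochondrial ribosome and 1.04 in the respiratory chain, against 0.28 over the 8987 transcripts tested, and every member was positive. It was called raised in 2 of 32 (Mrpl58 and Mrps27) and 8 of 54 (Ndufa6, Ndufa10, Ndufb10, Ndufb11, Uqcrfs1, Uqcrh, Cox7a2l and Atp5mj), against 2.16% of all transcripts tested. These calls depended on the model: with the lymphoma as a block, which joins RNA-seq and Ribo-seq libraries of the same label, 0 of 32 and 1 of 54 were called (42 transcripts in all, against 197), and with library totals 0 and 1. Among members, Atp5f1b at 0.77 and Ndufaf3 at 0.79 stood low in the readable part of the naming list. Ndufa3 at 0.74, Ndufaf8 at 0.72 and Mrpl4 at 0.67 stood highest outside it. These values give no threshold of the study's list, as tested transcripts in the readable part went down to 0.57 here. Cox7a2l had the highest value (2.64 ± 0.33), which came with an RNA difference of −2.77 and a footprint difference of −0.14. Without the 2 libraries the medians were 0.84 and 0.83, against 0.34 over all transcripts.

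Within a labelled genotype, the ratio of footprint CPM to RNA CPM was computed for each transcript, although it also carries the length of the coding sequence relative to the transcript. In the libraries labelled Eμ-Myc/+ its median was 2.35 in the mitochondrial ribosome and 2.33 in the respiratory chain, against 1.76 over all transcripts tested. Without the Ribo-seq library of replicate 3 these medians were 2.43, 2.61 and 1.66. In the libraries labelled Prps2null the medians were 4.45 and 4.30, against 1.76 over all, and without the Ribo-seq library of replicate 2 they were 3.64, 3.82 and 1.73. The difference of these ratios between the genotypes is the contrast through which most members were named. The ratios are therefore descriptions without a test.

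Other nuclear genes of mitochondria were examined from lists that do not overlap with the name rule, again with names that came mainly from the same study list. In RNA 84.6% of the tested transcripts of that study list were lower, against 18.5% over all, so the counts below only describe these genes. Of 6 genes listed for complex II and cytochrome c, 3 had a name: Sdha, Sdhb and Cyc1, which encodes cytochrome c1 of complex III. All 3 were lower in RNA (log2 fold changes from −1.67 for Sdha to −0.73 for Cyc1). Sdha, the flavoprotein of complex II, stood at 163, 138 and 122 CPM against 40.6, 57.3 and 63.8. Of assembly factors outside the name rule 11 of 14 named genes were lower, from Higd2a, a factor of cytochrome c oxidase (−1.99), to Uqcc2 of complex III (−0.49, not called). Of mitochondrial translation and transcription genes 15 of 20 were lower, from Ptcd2 (−1.60) to the release factor Mtrf1 (−0.08, not called).

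All 8 named genes of the tricarboxylic acid cycle and pyruvate dehydrogenase were lower. Idh2, the mitochondrial NADP-dependent isocitrate dehydrogenase, stood at 151, 140 and 128 CPM against 7.01, 20.9 and 7.02 (log2 −3.86 ± 0.33), a larger difference than in any of the 86 members, and Mdh2 had the smallest of the list (−0.75). Of import genes 11 of 15 were lower, from Pam16 (−1.69) to Tomm40l (−0.44, not called), and of chaperones, proteases and cristae genes 11 of 11, from Trap1 (−1.49) to Clpp (−0.72). No gene of these 6 lists was higher in RNA. In footprints without the 2 libraries, 17.9% of all transcripts tested and 46.4% of the list of raised translation efficiency were lower. Of the same 6 lists 1 of 3, 5 of 13, 3 of 20, 3 of 8, 4 of 15 and 3 of 11 were lower, and Mtrf1 and Timm50 were higher. With all 6 Ribo-seq libraries no gene of these lists was called, as none was over all transcripts. As these lists contain mostly genes named by the raised-efficiency list (2, 13, 17, 8, 11 and 11 of their named genes), their counts are no independent support for those of the members.

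Markers of cell types differed between the genotypes too, but most had their names from the list of raised translation efficiency. That list held 7 of 8 named B lineage markers (not Ms4a1), 3 of 4 myeloid, 4 of 4 stromal and the 1 T cell gene. In RNA 84.6% of its tested transcripts were lower, against 18.5% over all, so the counts below are a description of these markers. Of 8 named B lineage markers 7 were lower and Ms4a1, which encodes CD20, was higher (7.70, 5.87 and 7.90 CPM against 50.3, 77.4 and 94.6). The summed B lineage level was 2390 to 3320 CPM in Eμ-Myc/+ and 513 to 987 in Prps2null. The summed stromal markers (4 named) stood at 50.5 to 113 against 16.9 to 29.0 CPM, the myeloid markers (4 named) at 109 to 123 against 76.0 to 97.3, and the T cell gene Lck at 24.8 to 35.3 against 16.7 to 19.6. Cd74 made up most of the B lineage sum in Eμ-Myc/+, and Ctss most of the myeloid sum in both genotypes. Footprints without the 2 libraries did not always follow: of the B lineage markers 5 were lower and 1 higher (median −0.61), of the myeloid markers 0 were lower and 1 higher (Csf1r, median 0.82), of the stromal markers 1 was lower and 1 higher (Sparc, 1.31), and Lck was lower. With all 6 Ribo-seq libraries no marker was called. No named marker was at 0 in any RNA-seq library, and the part of these differences in the members' values was not tested.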

How the data were processed

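Libraries were grouped by GEO's labels, 3 per genotype and assay. The authors deposited raw RNA-seq counts per transcript (SMARTer stranded total RNA) and, for Ribo-seq, estimated counts of footprints of 23 to 32 nt after UMI collapse and correction for stalling; per the labels and methods, cutadapt 2.3 and Bowtie2 2.3.5 were used with mm10, and each gene was represented by its isoform of longest coding sequence. Counts are therefore per representative isoform, near-identical models can share reads, and correction made footprint counts fractional; they were rounded here. Member counts ran from 9 to 3213 in RNA-seq and from 9.3 to 2379.3 in Ribo-seq.

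All transcripts were fitted with edgeR 4.0.16 (R 4.3.3): filterByExpr, median-of-ratios factors within each assay, quasi-likelihood F-test, Benjamini-Hochberg adjustment over all transcripts tested, threshold 0.05. Translation efficiency was the assay by genotype interaction. All 86 members passed both filters. Alternatives were DESeq2 1.42.0, TMM, library totals, no filter, replicate or lymphoma blocks, common scaling, and leaving libraries out. Fits were tested on simulated data. Standard errors were derived from the F statistic. P-values measure the spread between these samples only.

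Members, gene lists and tests were chosen with earlier results of these data known. Genes named in the text were, for each subunit or complex, the member with the highest mean RNA CPM and those with the highest and lowest RNA fold change, members named only by the table of untranslated regions, members sharing a gene name, and the extremes of each other list; further members (such as Mrpl40, Mrpl58, Mrps27, Ndufb4, Uqcrh, Atp5pf and Cox14) were added after their values were seen. The supplementary lists supplied names and 5′ sequences only.

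No transcript-to-gene table, coding lengths or protein sequences were used here, so tests compared each transcript with itself between genotypes, and ratios of footprints to RNA were not corrected for length. One member is counted in its group but not reported here.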

Additional observations from a re-analysis of the deposited data

How the results depend on the processing

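In RNA, every member stayed negative in all 12 fits, a sign shared in the fit above by 98.7% of the list that named most members. Leaving out 1 library at a time gave 17 to 28 mitochondrial ribosome members and 39 to 52 respiratory chain members called lower, with medians from −1.08 to −0.85 and from −1.33 to −0.94, and 2724 to 5345 transcripts called in all; each lowest count came without Eμ-Myc/+ replicate 1, and 3243 were called without its replicate 3. With library totals the median of the mitochondrial ribosome moved to −0.66. Restricting members to those named in the table of untranslated regions left 13 of 19 and 33 of 36 lower, against 77.7% of that table. Its transcripts all had a positive change in translation efficiency where tested. Of the members not in the readable part of the list of raised translation efficiency, 2 of 7 were lower (0 of 2 and 2 of 5). The background was 59.5% of the 405 transcripts of that table not in that part. Both sets were positive throughout in translation efficiency (log2 0.65 to 0.74 and 0.33 to 0.79). Neither is therefore a set free of raised translation efficiency. Over the 28 transcripts named by rule, 278 of 308 alternative RNA values kept their call, 22 lost it, 8 gained it and none changed sign.

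In Ribo-seq, only leaving out both doubtful libraries produced calls: 3248 transcripts, with 8 mitochondrial ribosome and 21 respiratory chain members lower and medians of −0.11 and −0.32. Leaving out single libraries gave 0 calls, with medians from −0.05 to 0.11 and from −0.25 to 0.02.

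Calls of translation efficiency were the least stable; the cause was not tested. The 197 transcripts called became 620 with DESeq2, 326 without the 2 libraries, 119 without a filter, 106 with common scaling, 42 with the lymphoma as a block and 20 with library totals. Raised mitochondrial ribosome members (2) became 10, 2, 1, 0, 0 and 0, and raised respiratory chain members (8) became 27, 8, 4, 3, 1 and 1 in the same order. The medians of the mitochondrial ribosome moved to 0.65 with library totals and to 0.65 with common scaling; with library totals the median over all transcripts was −0.02. Without 1 lymphoma at a time, 0 to 174 transcripts, 0 to 3 mitochondrial ribosome and 0 to 8 respiratory chain members were called, with medians from 0.93 to 1.20 and from 0.92 to 1.36; leaving out Eμ-Myc/+ replicate 1 or 2 left 0 calls over all transcripts, leaving out Prps2null replicate 2 left 5, and Eμ-Myc/+ replicate 3 left 36.

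Replicate numbers were treated as shared labels only. Same-numbered samples had correlations of deviations of −0.22, −0.12 and 0.02 in RNA-seq and −0.62, 0.75 and 0.71 in Ribo-seq. In Ribo-seq the pairs numbered 2 and 3 each hold 1 of the 2 libraries whose Prps2 footprints went against their label. The source of these correlations was not tested. With the replicate number as a block, 20 of 32 and 50 of 54 members were called lower in RNA, none in Ribo-seq, and 7 and 10 raised in translation efficiency. Ribo-seq depth, lower than that of RNA-seq in every library, and 2 libraries per genotype in the restricted comparison limit the footprint values.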
